A study of Caenorhabditis elegans with 18 samples.

Results

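The genes described here are 9 genes for small secreted antimicrobial peptides of the *C. elegans* epidermis, *nlp-27*, *nlp-28*, *nlp-29*, *nlp-30*, *nlp-31*, *nlp-34*, *cnc-1*, *cnc-2* and *cnc-4*. They were chosen by name from the 29970 genes of the mRNA-seq table, and 8 of the 9 had a mean of at least 2 normalized counts over the 9 libraries and were among the 17037 genes tested. The other gene, *cnc-1*, was listed at 0 in every library. The study sequenced small RNAs and mRNA from whole gravid hermaphrodite adults, 72 h after synchronized first-stage larvae were placed on *E. coli* OP50 at 20 °C, to learn what the loss of TCER-1 changes in gene expression. TCER-1 is a worm nuclear protein with roles in transcription elongation and splicing. The mRNA libraries were 3 of wildtype (strain N2), 3 of *tcer-1(tm1452)* (strain CF2166) and 3 of *tcer-1(glm27)* (strain AGP278), a full-gene deletion made by genome editing. No library came from infected animals. The study describes *tcer-1(tm1452)* cultures as developmentally asynchronous and *tcer-1(glm27)* cultures as not.

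Worms lack dedicated immune cells, and the epidermis answers wounds and the spores of the fungus *Drechmeria coniospora* by transcribing genes for glycine-rich and aromatic-rich peptides. The neuropeptide-like *nlp-29* group is switched on by a p38 MAP kinase cascade within the epidermis, which runs from the receptor DCAR-1 and the G protein GPA-12 through TIR-1, NSY-1, SEK-1 and PMK-1 to the STAT-like factor STA-2. The caenacin gene *cnc-2* is known to respond instead to the TGF-beta ligand DBL-1, which is released by neurons.

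All 9 genes lie on chromosome V in 2 groups (positions of WBcel235, 1-based). The 6 *nlp* genes follow each other from *nlp-34* (3978825 to 3979134, reverse strand) through *nlp-31* (3980055 to 3980622), *nlp-30* (3981980 to 3982741), *nlp-29* (3984425 to 3984847) and *nlp-28* (3987900 to 3988316) to *nlp-27* (3989378 to 3989770), the last 5 on the forward strand. The caenacin genes are *cnc-1* (1444044 to 1444280, reverse strand), *cnc-4* (1447195 to 1447707, forward strand) and *cnc-2* (1449665 to 1450183, reverse strand). No other annotated gene overlaps any of them, and 0 of their exonic stretches of 50 bases occur elsewhere in the genome, so the reads of similar members were not shared at that length.

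The coding sequences below are shown because they carry the repeat that defines these peptides. Capitals mark each in-frame pair of a glycine codon (GGN) followed by a tyrosine codon (TAT or TAC). The 4 genes are the one the group is named after, the one with the most pairs, the one with the largest fold change, and the one whose change differed in direction between the alleles.
nlp-29: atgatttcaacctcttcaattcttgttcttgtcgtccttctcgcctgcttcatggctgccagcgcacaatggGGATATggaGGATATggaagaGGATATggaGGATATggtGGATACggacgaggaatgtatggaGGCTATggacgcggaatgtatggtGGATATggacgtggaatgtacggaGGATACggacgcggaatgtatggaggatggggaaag
nlp-31: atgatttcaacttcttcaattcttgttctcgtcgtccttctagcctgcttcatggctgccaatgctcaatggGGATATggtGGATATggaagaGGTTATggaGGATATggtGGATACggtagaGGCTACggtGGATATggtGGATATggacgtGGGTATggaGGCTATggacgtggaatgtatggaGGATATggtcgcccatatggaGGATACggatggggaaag
nlp-34: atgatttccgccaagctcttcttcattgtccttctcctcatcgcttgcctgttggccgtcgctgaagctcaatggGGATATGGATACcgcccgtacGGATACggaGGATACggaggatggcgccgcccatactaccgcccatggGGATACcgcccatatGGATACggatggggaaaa
cnc-2: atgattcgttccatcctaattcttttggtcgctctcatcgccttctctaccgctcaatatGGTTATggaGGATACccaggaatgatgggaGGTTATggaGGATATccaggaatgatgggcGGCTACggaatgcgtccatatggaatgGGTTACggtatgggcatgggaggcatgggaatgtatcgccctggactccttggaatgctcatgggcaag
Glycine codons made up 26 of the 73 codons of *nlp-29* (stop codon left out), 28 of 75 in *nlp-31*, 22 of 72 in *cnc-2* and 11 of 59 in *nlp-34*. The pair occurred 12 times in *nlp-31*, 8 times in *nlp-29* and 6 times each in *nlp-34* and *cnc-2*. *nlp-28*, *nlp-29*, *nlp-30* and *nlp-31* were 77.2 to 83.1% identical to each other over their aligned coding sequences. *nlp-27* was 68.9 to 72.3% identical to those 4, and *nlp-34*, the one *nlp* gene on the reverse strand, 55.6 to 58.8%. *cnc-2* and *cnc-4* were 69.9% identical.

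Since all 6 *nlp* genes rose in both mutants, the 250 bases before each annotated start were also read. The longest run of bases shared by any pair of these windows was 27 bases, in *nlp-28* and *nlp-29*, and it ended 5 and 17 bases before their starts. No other pair shared more than 13 bases. The 120 bases next to both starts are shown with that run in capitals (chrV:3987780-3987899 and chrV:3984305-3984424, forward strand, WBcel235).
nlp-28: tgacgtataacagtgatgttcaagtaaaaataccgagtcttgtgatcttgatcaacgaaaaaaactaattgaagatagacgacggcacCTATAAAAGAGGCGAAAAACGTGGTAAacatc
nlp-29: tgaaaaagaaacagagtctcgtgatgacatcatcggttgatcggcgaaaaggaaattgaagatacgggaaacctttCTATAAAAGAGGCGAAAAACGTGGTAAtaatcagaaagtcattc
The epidermis uses GATA factors such as ELT-3, so the letters GATAA and TGATAAG were searched on both strands (each TGATAAG also holds a GATAA), as well as the STAT-type letters TTCNNNGAA. GATAA was in the windows of 5 of the 9 genes, and in 52.2% of the windows of 19973 protein-coding genes. TGATAAG was in 3 of the 9, *nlp-27*, *nlp-31* and *cnc-2*, against 8.2% of all windows. TTCNNNGAA was in 2 of the 9, *nlp-30* and *nlp-31*, against 14.7%. The 3 windows with TGATAAG are shown in part, with those letters (or their reverse complement CTTATCA) in capitals, at chrV:3989246-3989365 (forward strand), chrV:3979935-3980054 (forward strand) and chrV:1450270-1450389 (reverse strand).
nlp-27: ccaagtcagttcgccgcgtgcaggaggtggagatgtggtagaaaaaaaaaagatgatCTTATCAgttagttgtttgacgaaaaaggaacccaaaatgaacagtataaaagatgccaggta
nlp-31: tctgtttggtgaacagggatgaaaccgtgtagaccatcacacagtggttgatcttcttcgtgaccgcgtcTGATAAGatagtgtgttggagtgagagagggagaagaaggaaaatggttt
cnc-2: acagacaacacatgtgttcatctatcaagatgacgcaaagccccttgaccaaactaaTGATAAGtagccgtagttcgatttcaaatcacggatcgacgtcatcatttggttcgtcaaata
The letters ended 68, 43 and 142 bases before the annotated starts. Of the 3 genes that hold them, *nlp-27* and *nlp-31* rose in both mutants. *cnc-2* fell in the *tcer-1(tm1452)* mutant and rose in the *tcer-1(glm27)* mutant at the edge of the threshold (limma adjusted p = 0.0484). A part of these letters in the changes was not tested.

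The mRNA libraries held about 17974602 to 27866684 reads, and their normalized counts summed to 22491326 to 23721969. A normalized count is a read count that the authors' pipeline rescaled within each library, by a factor that also varied with transcript length. *tcer-1* itself was at 5877 to 6346 normalized counts in the wildtype libraries, 862 to 1026 in the *tcer-1(tm1452)* mutant and 470 to 529 in the *tcer-1(glm27)* mutant. Every mutant library was thus far below every wildtype library. The *tcer-1(glm27)* libraries were nevertheless not at 0, although the study describes that allele as a deletion of the whole gene, and the origin of these counts was not tested. Marker lists moved with genotype beside the peptide genes. The 9 sperm markers, genes such as the major sperm proteins, summed to 166 to 200 normalized counts in wildtype, 4902 to 5476 in the *tcer-1(tm1452)* mutant and 1045 to 1317 in the *tcer-1(glm27)* mutant. The 12 epidermis markers summed to 34689 to 35394, 93190 to 97110 and 57311 to 67018, a sum dominated by the adult cuticle collagen *col-19*. The 8 germline and oocyte markers summed to 186074 to 197725, 121622 to 133700 and 123668 to 133895. The 7 body wall muscle markers summed to 31127 to 39010, 108053 to 125993 and 41569 to 47454, and the 8 intestine markers to 52785 to 58416, 76283 to 84244 and 81217 to 84861. The part of these shifts in the changes below was not tested. No defining marker of any list was at 0 in every library.

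The members differed widely in level. Per kilobase of annotated transcript, *nlp-27* was highest with 2159 ± 101 normalized counts per kb (SD, n = 3), followed by *nlp-28* (1001 ± 132), *nlp-29* (353 ± 14.6), *nlp-31* (288 ± 24.4), *cnc-4* (247 ± 5.42), *cnc-2* (44.9 ± 4.53), *nlp-30* (20.0 ± 5.59) and *nlp-34* (13.5 ± 4.03). No neighbours in this order overlapped across the 3 wildtype libraries, although *nlp-30* and *nlp-34* all but touched, with the lowest library of *nlp-30* at 16.0 per kb and the highest of *nlp-34* at 15.97. In both mutants *nlp-29* and *nlp-31* overlapped. *cnc-2* was the lowest of the 8 in the *tcer-1(tm1452)* mutant at 19.1 ± 2.24 per kb, where *nlp-34* and *nlp-30* lay above it without overlap. In *tcer-1(glm27)* *nlp-34* and *cnc-2* overlapped, and *nlp-30* was lowest.

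Together the 9 genes summed to 1413 ± 21.3 normalized counts in wildtype (SD, n = 3), 2346 ± 240 in the *tcer-1(tm1452)* mutant and 2282 ± 291 in the *tcer-1(glm27)* mutant. They were thus a small share of all mRNA, 0.00608 ± 0.000098% of the summed values in wildtype, 0.00997 ± 0.00104% in the *tcer-1(tm1452)* mutant and 0.0101 ± 0.0013% in the *tcer-1(glm27)* mutant. *nlp-27* alone supplied 48.3 ± 2.81% of the members' sum in wildtype and 54.5 ± 2.64% and 56.9 ± 2.72% in the mutants.

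**Figure D1:**
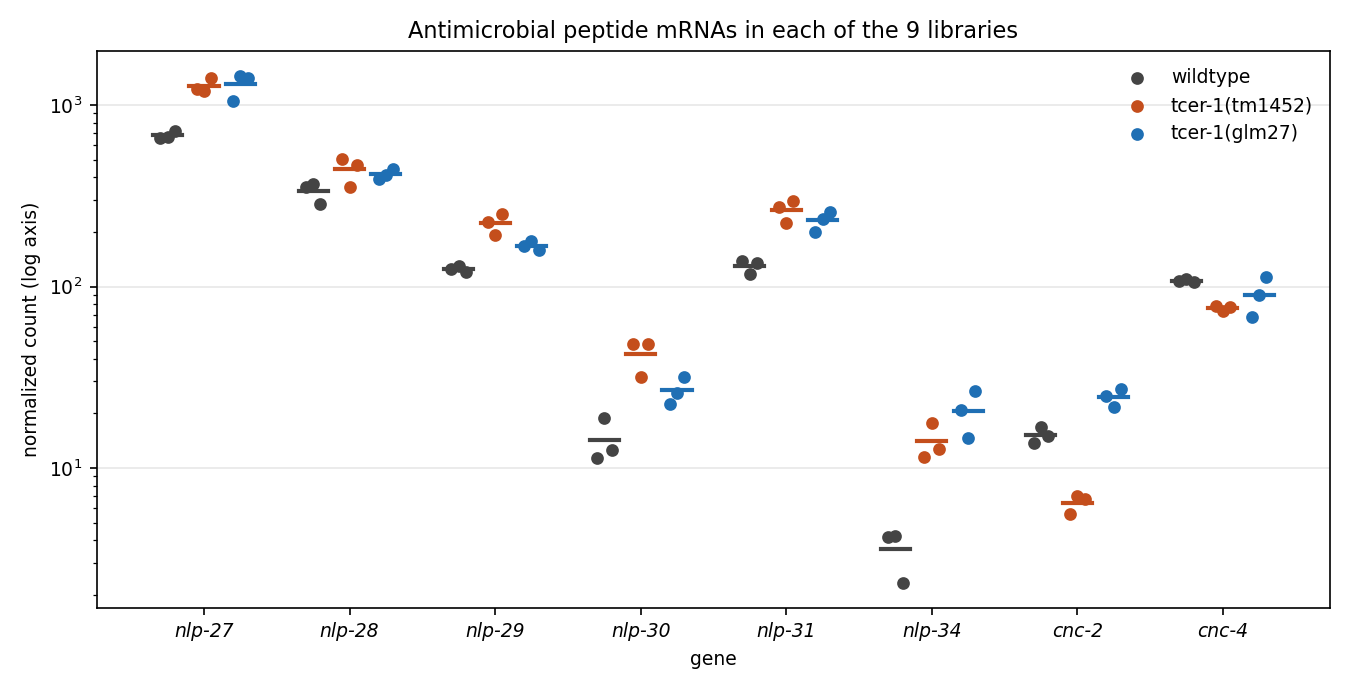
Normalized count (log axis) of the 8 peptide genes with values above 0, for wildtype (grey), *tcer-1(tm1452)* (orange) and *tcer-1(glm27)* (blue). Each point is 1 library and each bar the mean of 3. The mutant points lie above wildtype for the *nlp* genes, with an overlap only for *nlp-28* in the *tcer-1(tm1452)* mutant, whereas *cnc-2* is lowest in the *tcer-1(tm1452)* mutant and highest in the *tcer-1(glm27)* mutant.

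All 6 *nlp* genes rose in both *tcer-1* mutants, while *cnc-2* and *cnc-4* fell in the *tcer-1(tm1452)* mutant. Of the 8 genes tested, 6 were higher and 2 lower in the *tcer-1(tm1452)* mutant (limma on log2 of the normalized count plus 1, adjusted p under 0.05). Among all tested genes, 35.3% were higher and 34.1% lower in that comparison. In *tcer-1(glm27)* 7 of the 8 were higher and 0 lower in the limma fit (also 0 lower at an unadjusted p under 0.05), against 33.2% and 27.5% of all tested genes. The median log2 fold change over the 8 genes was 0.861 in the *tcer-1(tm1452)* mutant and 0.745 in the *tcer-1(glm27)* mutant, beside medians of 0.02 and 0.13 over all tested genes. Other lists rose as well, with medians of 0.514 and 0.556 for intestine, 0.684 and 0.223 for neuron, and 1.51 and 0.354 for muscle markers. Sperm markers had 4.85 and 2.62, epidermis markers -0.23 and 0.416, and germline and oocyte markers -0.682 and -0.648. The 6 *nlp* genes were past the test upwards in both mutants, as were 24.8% of all tested genes. Both comparisons use the same 3 wildtype libraries. The libraries of the groups compared did not overlap for 7 of the 8 genes in the *tcer-1(tm1452)* mutant, 7 in the *tcer-1(glm27)* mutant and 3 between the alleles, beside 71.9%, 65.7% and 56.5% of all tested genes. In whole animals, a change in the number of epidermal cells and a change in the RNA per cell cannot be told apart.

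*nlp-27*, the most abundant member, was at 658, 670 and 719 normalized counts in the wildtype libraries, at 1231, 1190 and 1409 in the *tcer-1(tm1452)* mutant and at 1054, 1444 and 1413 in the *tcer-1(glm27)* mutant. Every mutant library was above every wildtype library, and the mutants overlapped each other. The log2 fold change was 0.90 ± 0.10 (standard error) in the *tcer-1(tm1452)* mutant (limma adjusted p = 2.27e-06) and 0.92 ± 0.10 in the *tcer-1(glm27)* mutant (adjusted p = 2.81e-06), a rise of 1.87 and 1.91 times in the means. The difference of the alleles was -0.02, with a 95% interval from -0.24 to 0.20.

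*nlp-28*, the neighbor of *nlp-27*, changed least among the *nlp* genes. Its values were 353, 368 and 285 in wildtype, 506, 355 and 468 in the *tcer-1(tm1452)* mutant, and 391, 413 and 447 in the *tcer-1(glm27)* mutant. The second *tcer-1(tm1452)* library lay within the wildtype range, whereas the *tcer-1(glm27)* libraries were all above it. The log2 fold changes of 0.39 ± 0.12 (adjusted p = 0.0119) and 0.32 ± 0.12 (adjusted p = 0.0386) were past the test, but each call rested on single libraries. For *tcer-1(tm1452)* the adjusted p was 0.0669 without wildtype replicate 3 and 0.0668 without *tcer-1(tm1452)* replicate 1. For *tcer-1(glm27)* it was 0.182 without wildtype replicate 3, 0.0765 without *tcer-1(glm27)* replicate 2 and 0.127 without its replicate 3.

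*nlp-29*, the gene best known as a reporter of fungal infection and wounding, was at 125, 130 and 120 in wildtype, 227, 191 and 250 in the *tcer-1(tm1452)* mutant and 167, 179 and 159 in the *tcer-1(glm27)* mutant. The 3 genotypes formed 3 separate ranges, with *tcer-1(tm1452)* highest. The log2 fold change was 0.82 ± 0.11 in the *tcer-1(tm1452)* mutant (adjusted p = 1.55e-05) and 0.42 ± 0.11 in the *tcer-1(glm27)* mutant (adjusted p = 0.00479).

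*nlp-31* was at 137, 117 and 135 in wildtype, 274, 224 and 295 in the *tcer-1(tm1452)* mutant and 199, 237 and 258 in the *tcer-1(glm27)* mutant. Its mean was 2.04 times that of wildtype in the *tcer-1(tm1452)* mutant, a log2 fold change of 1.01 ± 0.13 (adjusted p = 5.61e-06), and 1.78 times in the *tcer-1(glm27)* mutant, 0.82 ± 0.13 (adjusted p = 5.49e-05). No mutant library reached down to wildtype.

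*nlp-30* was a weak transcript, at 11.4, 18.8 and 12.5 in wildtype, 48.1, 31.9 and 48.3 in the *tcer-1(tm1452)* mutant and 22.6, 26.1 and 31.7 in the *tcer-1(glm27)* mutant. These values stand for 42 reads over the 3 wildtype libraries (95% exact Poisson interval 30.3 to 56.8), 126 in the *tcer-1(tm1452)* mutant (105 to 150) and 87 in the *tcer-1(glm27)* mutant (69.7 to 107). Such intervals cover counting error only. The log2 fold change was 1.53 ± 0.27 in the *tcer-1(tm1452)* mutant (adjusted p = 0.000147) and 0.88 ± 0.27 in the *tcer-1(glm27)* mutant (adjusted p = 0.0107), and the 3 genotypes did not overlap.

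*nlp-34* had the lowest mean of the detected members over the 9 libraries, 12.8 normalized counts, with 2 to 5 reads in each wildtype library. It had the largest fold change against wildtype in both mutants in the main fit. In the *tcer-1(tm1452)* mutant, *cnc-2* was lower. It was at 4.16, 4.22 and 2.34 normalized counts in wildtype, 11.5, 17.8 and 12.8 in the *tcer-1(tm1452)* mutant and 20.8, 14.6 and 26.7 in the *tcer-1(glm27)* mutant, with all mutant libraries above wildtype. The reads behind it were 11 in wildtype (95% exact Poisson interval 5.49 to 19.7), 38 in the *tcer-1(tm1452)* mutant (26.9 to 52.2) and 69 in the *tcer-1(glm27)* mutant (53.7 to 87.3). The log2 fold change was 1.73 ± 0.35 (adjusted p = 0.000497) and 2.24 ± 0.35 (adjusted p = 6.51e-05). Over the alternatives it ranged from 1.15 to 1.85 in the *tcer-1(tm1452)* mutant and from 1.56 to 2.46 in the *tcer-1(glm27)* mutant. With a pseudocount of 5, *nlp-30* had the larger rise in the *tcer-1(tm1452)* mutant (1.31 against 1.15).

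*cnc-2* moved in opposite directions in the alleles. It was at 13.7, 16.8 and 14.98 in wildtype, 5.58, 6.99 and 6.77 in the *tcer-1(tm1452)* mutant and 24.97, 21.8 and 27.4 in the *tcer-1(glm27)* mutant, so the 3 genotypes did not overlap. The reads were 45 in wildtype (95% exact Poisson interval 32.8 to 60.2), 18 in the *tcer-1(tm1452)* mutant (10.7 to 28.5) and 81 in the *tcer-1(glm27)* mutant (64.3 to 101). The fall in the *tcer-1(tm1452)* mutant had a log2 fold change of -1.12 ± 0.27 (adjusted p = 0.00221). The rise in the *tcer-1(glm27)* mutant, 0.67 ± 0.27 (adjusted p = 0.0484), was at the edge of the threshold, and it was lost when any one wildtype library, any one *tcer-1(glm27)* library or *tcer-1(tm1452)* replicate 3 was left out, with adjusted p values of 0.0502 to 0.144. Among all tested genes, 2.45% were past the test downwards in the *tcer-1(tm1452)* mutant and upwards in the *tcer-1(glm27)* mutant.

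*cnc-4* was at 107, 110 and 105 in wildtype and at 78.0, 73.7 and 76.8 in the *tcer-1(tm1452)* mutant, 2 tight ranges that did not overlap. The log2 fold change was -0.49 ± 0.16 (adjusted p = 0.0161). In *tcer-1(glm27)* the values of 68.1, 89.5 and 113 reached from below the *tcer-1(tm1452)* range to above wildtype, and the log2 fold change of -0.28 ± 0.16 was not past the test (adjusted p = 0.162, 95% interval -0.63 to 0.08). Without *tcer-1(glm27)* replicate 3 it was -0.45 (adjusted p = 0.0277), and without *tcer-1(glm27)* replicate 1 it was -0.092 (adjusted p = 0.617).

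*cnc-1* was listed at 0 in all 9 libraries, which allows up to 3.69 reads over the 3 libraries of a genotype (upper end of the 95% exact Poisson interval). Its annotated transcript is 189 nt long, and the RNA had been size-selected above 200 nt. Of this length 186 nt are coding sequence before the stop codon, so the model holds no untranslated regions. The length of the real mRNA is thus not known from it, and the cause of the zeros was not tested. Of the 302 protein-coding genes annotated at up to 200 nt, 72.5% were listed at 0 in all 9 libraries, against 18.2% of those of more than 200 and up to 400 nt and 4.38% of longer ones.

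At the 2-fold level (a log2 fold change of 1 or more in size as well), *nlp-30*, *nlp-31* and *nlp-34* were higher and *cnc-2* lower in the *tcer-1(tm1452)* mutant, 3 and 1 of the 8 genes. Among all tested genes 20.2% and 7.51% passed that call. In *tcer-1(glm27)* 1 of the 8, *nlp-34*, passed it upwards and 0 downwards, against 14.5% and 2.07%. *nlp-31* sat on the line at 1.01, and with a pseudocount of 5 only *nlp-30* and *nlp-34* were called in the *tcer-1(tm1452)* mutant.

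**Figure D2:**
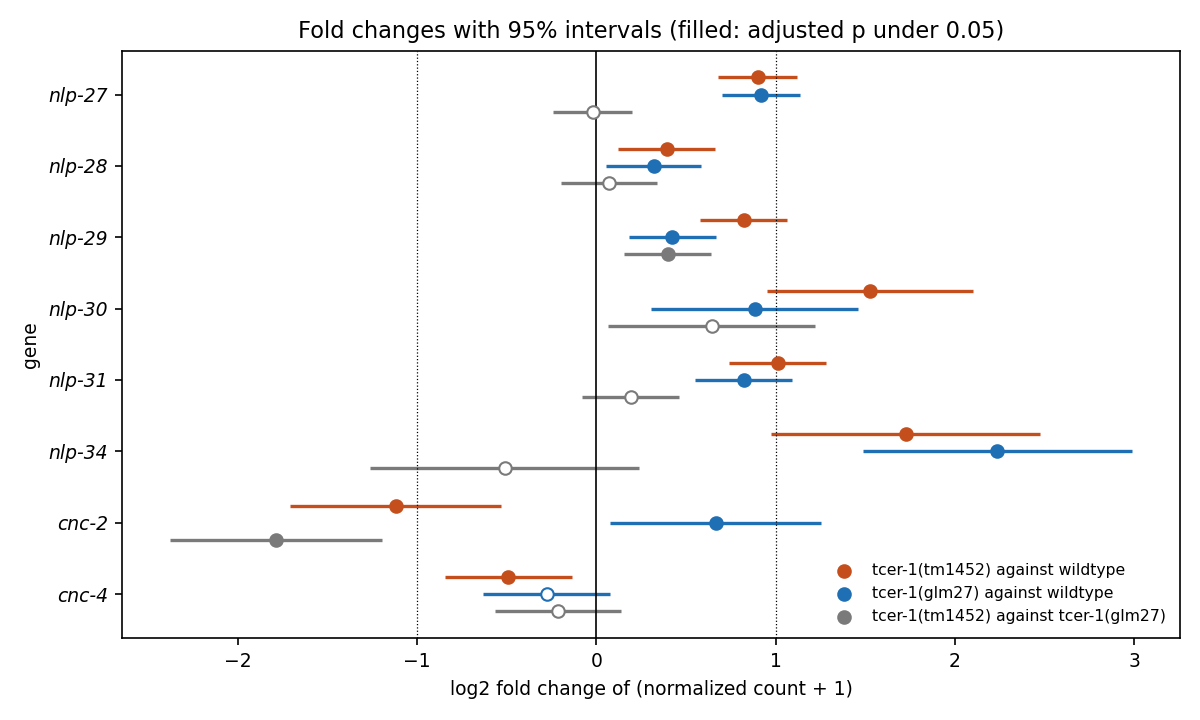
Log2 fold change (x axis) of each of the 8 tested genes with its 95% interval from limma, for each mutant against wildtype and for the alleles against each other. Filled points have an adjusted p under 0.05 and dotted lines mark 2-fold. All *nlp* points against wildtype are filled and to the right of 0, and the *cnc-2* points lie on either side of 0, at -1.12 and 0.67.

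The direct comparison of the alleles called 2 of the 8 genes, *nlp-29* higher and *cnc-2* lower in the *tcer-1(tm1452)* mutant than in the *tcer-1(glm27)* mutant. Among all tested genes 27.3% were higher and 19.8% lower, 47.1% in all. At the 2-fold level 1 of the 8 was lower and 0 higher, against 8.08% and 11.4%. The difference of *nlp-29* was 0.40 ± 0.11 on the log2 scale (adjusted p = 0.0102), and it was lost without *tcer-1(tm1452)* replicate 3 (adjusted p = 0.0589). That of *cnc-2* was -1.79 ± 0.27 (adjusted p = 0.000105), and its mean normalized count was 3.83 times as high in the *tcer-1(glm27)* mutant. *nlp-30* was 0.64 ± 0.27 higher in the *tcer-1(tm1452)* mutant with no overlap of the libraries, and missed the threshold (adjusted p = 0.0624). As each library was left out its adjusted p ranged from 0.0314 (without *tcer-1(tm1452)* replicate 2) to 0.18, and it was also under the threshold without wildtype replicate 2 (0.0480). For *nlp-34* the difference was -0.51 with a 95% interval from -1.26 to 0.24, whose lower end is beyond 2-fold. The intervals of *nlp-28* (-0.20 to 0.34) and *nlp-31* (-0.08 to 0.46) were narrower. *cnc-4* had an interval from -0.57 to 0.14, and without *tcer-1(glm27)* replicate 1 its difference was past the test at -0.40 (adjusted p = 0.0421), whereas without *tcer-1(glm27)* replicate 3 it was -0.036 (adjusted p = 0.881).

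Among the 3 *tcer-1(tm1452)* libraries, replicate 2 was the lowest for *nlp-27*, *nlp-28*, *nlp-29*, *nlp-30*, *nlp-31* and *cnc-4*. It was the highest for *nlp-34* and *cnc-2*. It was also the shallowest library, with about 17974602 reads. The value of 1 read depended on transcript length in these data. At the lengths of the 8 tested genes it was 1.02 to 1.13 times its value for long genes in that library, 0.916 to 0.987 times in *tcer-1(tm1452)* replicate 1 and 0.943 to 1.03 times in the wildtype libraries. With this factor removed, an alternative added after seeing the values, *nlp-28* in the *tcer-1(glm27)* mutant was no longer past the test (adjusted p = 0.0637) and *nlp-31* in the *tcer-1(tm1452)* mutant lay just under 2-fold. No other call of the 8 genes against wildtype changed.

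Over the 9 libraries the 6 *nlp* genes had pairwise correlations of 0.641 to 0.96 on the log2 scale (15 pairs, median 0.82), highest for *nlp-27* with *nlp-31*. Of the 12 pairs of an *nlp* gene with *cnc-2* or *cnc-4*, 11 were negative, from -0.73, and the other, *nlp-34* with *cnc-2*, was 0.102. These values describe 9 points that share 3 genotypes. The genes whose profile was most like the mean profile of the 8 members were *C49F5.7* (r = 0.988 over 9 libraries), *T03F6.10* (0.983), *ctc-3* (0.976), *far-5* (0.974) and *K09A9.8* (0.973). *ctc-3* is a mitochondrially encoded subunit of cytochrome c oxidase, and *far-5* encodes a fatty acid and retinol binding protein. The mean of *far-5* was 81.1 normalized counts in wildtype, 208 in the *tcer-1(tm1452)* mutant and 198 in the *tcer-1(glm27)* mutant.

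**Figure D3:**
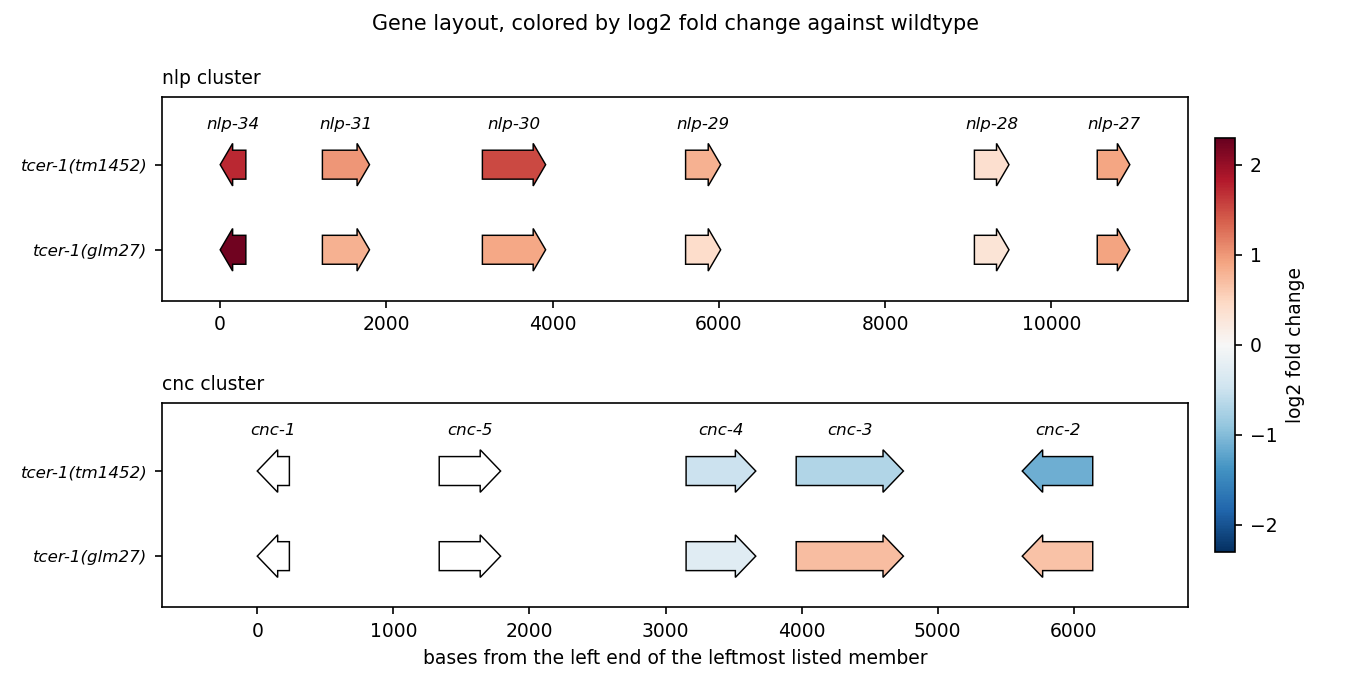
Layout of both gene groups on chromosome V, with bases from the left end of the leftmost gene on the x axis and arrows in the direction of transcription. Color gives the log2 fold change against wildtype, and white arrows had no test. The *nlp* genes are red in both rows, and *cnc-3* and *cnc-2*, at the right end of the caenacin group, are blue in the *tcer-1(tm1452)* mutant and red in the *tcer-1(glm27)* mutant.

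Of the 9 other protein-coding genes within 5 kb of a member, 4 were tested. *chil-14* is a chitinase-like gene near *cnc-2*, with *srj-23* between them. *chil-14* was a weak transcript, with a mean of 7.27 normalized counts over the 9 libraries. It rose in the *tcer-1(tm1452)* mutant with a log2 fold change of 2.06 (adjusted p = 0.000878). Its value of 1.02 in the *tcer-1(glm27)* mutant was not past the test (adjusted p = 0.0619). *cnc-11*, beside *cnc-1*, fell in the *tcer-1(tm1452)* mutant by 1.56 on the log2 scale (adjusted p = 0.0428) from a mean of 6.77 to 2.11 normalized counts. *cnc-3*, which lies between *cnc-4* and *cnc-2* and was chosen after its values were seen, was at 49.6 ± 7.48 in wildtype, 31.6 ± 12.8 in the *tcer-1(tm1452)* mutant and 81.5 ± 10.2 in the *tcer-1(glm27)* mutant (SD, n = 3). Its log2 fold changes were -0.70 (adjusted p = 0.0228) and 0.71 (adjusted p = 0.0243), and the alleles differed by -1.40 (adjusted p = 0.000372).

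Of 13 other *nlp* and *cnc* peptide genes, 9 were tested, of which 5 rose and 2 fell in the *tcer-1(tm1452)* mutant, and 7 rose and 0 fell in the *tcer-1(glm27)* mutant. Their median log2 fold changes were 0.917 and 0.708. For all tested genes, 35.3% rose and 34.1% fell in the *tcer-1(tm1452)* mutant, and 33.2% and 27.5% in the *tcer-1(glm27)* mutant. *nlp-26* was at 75.3 ± 13.9 in wildtype, 541 ± 129 in the *tcer-1(tm1452)* mutant and 228 ± 17.4 in the *tcer-1(glm27)* mutant, with log2 fold changes of 2.82 (adjusted p = 2.74e-09) and 1.602 (adjusted p = 1.73e-06). *nlp-24* rose by 1.49 (adjusted p = 1.23e-10) and 1.32 (adjusted p = 1.68e-09), from 788 ± 28.6 to 2219 ± 215 and 1963 ± 84.6. *cnc-10* rose by 1.27 (adjusted p = 5.6e-06) and 0.56 (adjusted p = 0.00706). *cnc-7*, also chosen after its values were seen, had 12.5 ± 1.88 in wildtype, 8.85 ± 0.36 in the *tcer-1(tm1452)* mutant and 20.8 ± 0.75 in the *tcer-1(glm27)* mutant. It rose in the *tcer-1(glm27)* mutant (0.71, adjusted p = 0.0372), and its -0.44 in the *tcer-1(tm1452)* mutant was not past the test (adjusted p = 0.163). *cnc-5* and *cnc-9* were at 0 in all 9 libraries.

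**Figure D4:**
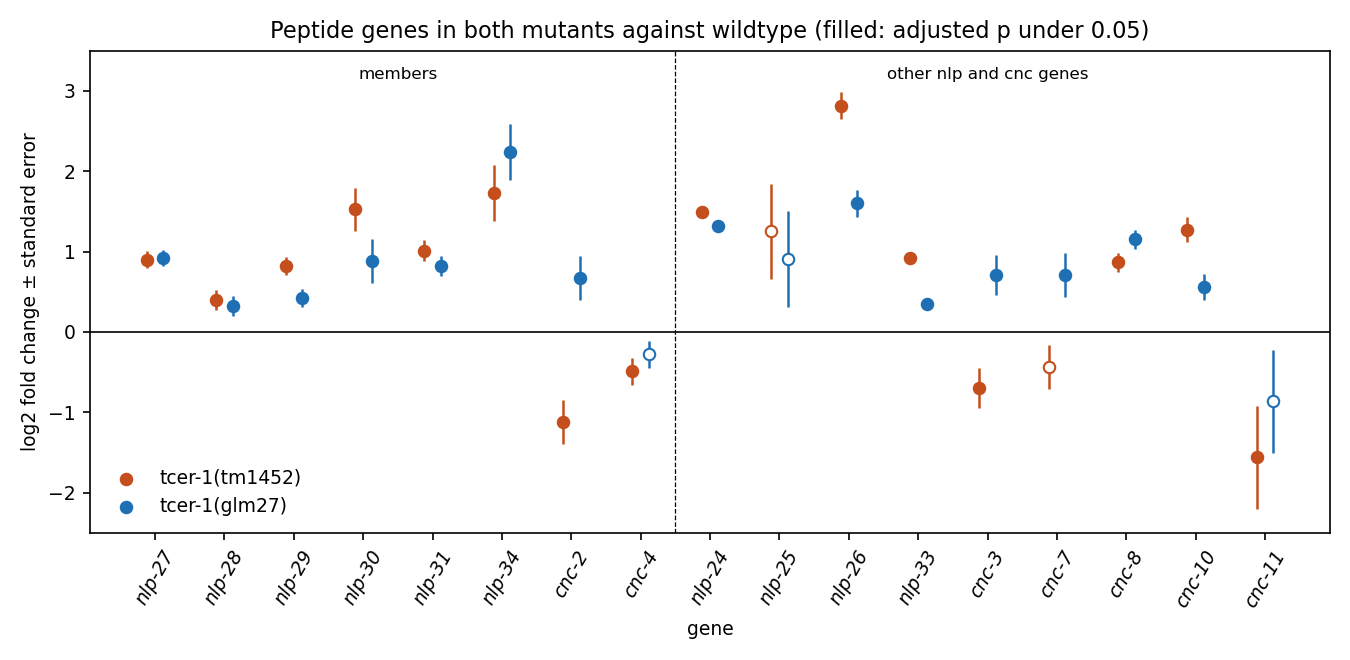
Log2 fold change with its standard error for the 8 tested members and the 9 other tested peptide genes, in the *tcer-1(tm1452)* mutant (orange) and *tcer-1(glm27)* (blue). Filled points have an adjusted p under 0.05. *nlp-26* reaches 2.82 and 1.602, and *cnc-2*, *cnc-3* and *cnc-7* are the genes with a blue point above 0 and an orange point below it.

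Of 15 genes of the epidermal p38 and STAT pathway, 10 rose and 1 fell in the *tcer-1(tm1452)* mutant, and 8 rose and 2 fell in the *tcer-1(glm27)* mutant, with median log2 fold changes of 0.365 and 0.231. *gpa-12*, the G protein alpha subunit whose activation turns on *nlp-29*, was the one gene of the list past the 2-fold call. It was at 99.0 ± 8.28 in wildtype, 274 ± 6.59 in the *tcer-1(tm1452)* mutant and 170 ± 11.9 in the *tcer-1(glm27)* mutant, with log2 fold changes of 1.46 (adjusted p = 1.54e-08) and 0.78 (adjusted p = 1.4e-05). The other cascade genes named above are given after their values were seen. *tir-1* fell in both mutants (-0.45, adjusted p = 0.000579, and -0.25, adjusted p = 0.0334). *nsy-1* (0.07 and 0.003) was past the test in neither. *sek-1* rose only in the *tcer-1(tm1452)* mutant (0.22, adjusted p = 0.00582) and *pmk-1* only in the *tcer-1(glm27)* mutant (0.23, adjusted p = 0.00941). *dcar-1* (0.43 and 0.42) and *sta-2* (0.35 and 0.30) rose in both. Of 9 genes of the DBL-1 pathway, 4 rose and 4 fell in the *tcer-1(tm1452)* mutant, and 4 rose and 2 fell in the *tcer-1(glm27)* mutant, with medians of 0.159 and 0.222, and none passed the 2-fold call. Of all tested genes, 69.4% and 60.7% were past the test in either direction.

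The 10 genes whose loss is known to raise the epidermal peptide genes, such as furrow collagens and osmotic regulators, did not move one way. In *tcer-1(tm1452)* 5 rose and 4 fell, and in the *tcer-1(glm27)* mutant 6 rose and 1 fell. For all tested genes the shares were 35.3% and 34.1% in the former comparison, and 33.2% and 27.5% in the latter. The furrow collagen *dpy-8* rose from 8.83 ± 3.08 in wildtype to 132 ± 17.6 in the *tcer-1(tm1452)* mutant and 38.9 ± 4.0 in the *tcer-1(glm27)* mutant (log2 fold changes 3.79 and 2.06, adjusted p = 3.95e-09 and 3.63e-06). *dpy-9*, another of these collagens, rose by 2.04 (adjusted p = 1.38e-06) and 1.346 (adjusted p = 0.0001). The other 4 furrow collagens of the list, named here after their values were seen, had lower means in the *tcer-1(tm1452)* mutant. *dpy-10* fell there, with a log2 fold change of -1.01 (adjusted p = 3.24e-07), as did *dpy-2* (-0.61, adjusted p = 0.00425) and *dpy-7* (-0.49, adjusted p = 0.0206), and the -0.41 of *dpy-3* was not past the test (adjusted p = 0.0577). In *tcer-1(glm27)* *dpy-2* (0.53, adjusted p = 0.0119) and *dpy-7* (0.46, adjusted p = 0.0318) rose, and the values of *dpy-3* (0.41, adjusted p = 0.0655) and *dpy-10* (-0.13, adjusted p = 0.24) were not past the test. *osm-8*, a mucin-like regulator of the osmotic response, fell in both, with log2 fold changes of -1.12 (adjusted p = 0.0252) and -1.61 (adjusted p = 0.00344). *osm-7* rose by 1.23 (adjusted p = 2.67e-08) and 0.55 (adjusted p = 0.000115).

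Of the 12 epidermis markers, 5 rose and 7 fell in the *tcer-1(tm1452)* mutant, and 8 rose and 3 fell in the *tcer-1(glm27)* mutant, with medians of -0.23 and 0.416. The shares of all tested genes were 35.3% higher and 34.1% lower in the *tcer-1(tm1452)* mutant, and 33.2% and 27.5% in the *tcer-1(glm27)* mutant. The cuticle collagens *bli-1* (15 ± 4.91 in wildtype, 290 ± 51.7 and 83.0 ± 11.96 in the mutants), *rol-6* (16.6 ± 5.53, 289 ± 32.6 and 102 ± 14.6) and *col-10* (171 ± 18.7, 1551 ± 189 and 577 ± 94.6) rose in both, with adjusted p from 2.39e-11 to 5.37e-07. *hch-1*, the hatching metalloprotease, was at 101 ± 16.1 in wildtype, 0.28 ± 0.49 in the *tcer-1(tm1452)* mutant and 222 ± 25.8 in the *tcer-1(glm27)* mutant. Other markers of the list, named after their values were seen, fell in both mutants. They were *wrt-2* (log2 fold changes -1.41 and -1.41), *lin-26* (-0.43 and -0.52) and *vha-7* (-0.17 and -0.22), all past the test. The part of these shifts in the peptide genes' levels was not tested.

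The small RNA table of 25899 features, which lists 22G-RNAs and other siRNAs by the gene they derive from, had 0 entries for any of the 9 genes. Small RNAs were therefore not compared at these genes.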

How the data were processed

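The mRNA values analysed are normalized counts (a signal) that the authors deposited, made with fastp, RSEM 1.3.1 with STAR 2.7.10b on WormBase WS279, and DESeq2. The deposited small RNA values are RPM from tinyRNA and were only searched for the members. The value of 1 read was taken from the lowest values of genes with 1 transcript, by transcript length, and 99.57 to 99.96% of values up to 20 reads per library were then within 0.05 of a whole read. PCR reads carry no molecular identifiers.

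log2 of the value plus 1 was fitted with limma 3.58.1 in R 4.3.3 (1 fit over all 9 libraries, with a trend of variance on mean in eBayes), for genes with a mean of at least 2, with Benjamini-Hochberg adjustment over all tested genes. The study calls the 3 libraries of a genotype biological replicates. Each p-value rests on 1 spread per gene, pooled within genotypes over all 9 libraries and drawn toward the trend. It is thus not the spread of the compared libraries alone. The fit was also run on simulated counts with the same dispersion for every gene and no length factor. No gene as low in wildtype as *nlp-34*, *nlp-30* or *cnc-2* was changed in them, so they do not cover such genes. Positions, lengths and sequences come from WBcel235 with Ensembl release 115, and figures from Python 3.11.15 with matplotlib 3.10.9. The members and the gene lists were chosen with earlier results of these data known. Named genes were the members, up to 4 genes of each other list past the 2-fold call, the 5 genes most like the members' mean profile, and neighbors within 5 kb past the 2-fold call. Further genes are marked where they were named after their values were seen. Alternatives were other pseudocounts, filters, scalings, fits and thresholds, the replicate block, a length correction and each library left out.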

Additional observations from a re-analysis of the deposited data

Results flagged for a closer look

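The alleles differed in the direct test for 2 of the 8 genes. *nlp-29* was higher in the *tcer-1(tm1452)* mutant than in the *tcer-1(glm27)* mutant by 0.40 on the log2 scale (standard error 0.11, limma adjusted p = 0.0102), with all 3 libraries of the former above all 3 of the latter. *cnc-2* was lower in the *tcer-1(tm1452)* mutant, with a difference of -1.79 (standard error 0.27, limma adjusted p = 0.000105), again without overlap. Among all 17037 tested genes, 47.1% differed between the alleles. The adjusted p of *nlp-29* ranged from 0.00315 to 0.0589 and that of *cnc-2* from 0.000157 to 0.00105 as each library was left out in turn.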

How the results depend on the processing

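Of the 504 other values of single genes' fold changes, 468 kept their direction and their side of the threshold. The changes against wildtype kept their direction in all 8 genes under every alternative run, scalings included. The counts of members past the test were 7 to 8, 5 to 7 and 1 to 3 as each library was left out (8, 7 and 2 with all libraries, for *tcer-1(tm1452)* against wildtype, *tcer-1(glm27)* against wildtype and *tcer-1(tm1452)* against *tcer-1(glm27)*), and those at 2-fold 3 to 4, 1 to 2 and 1. An adjusted p under 0.01 left 4 genes in the *tcer-1(glm27)* mutant and 1 between the alleles. A pseudocount of 5 left 2 genes at 2-fold in the *tcer-1(tm1452)* mutant, and equal upper quartiles called 2 at 2-fold in the *tcer-1(glm27)* mutant. Without the 10 genes of highest mean the members' share in wildtype was 0.00664%. Between the alleles *nlp-27* (-0.02) ranged from -0.17 to 0.061 and turned positive without *tcer-1(tm1452)* replicate 1 or 2 or *tcer-1(glm27)* replicate 2 or 3, and *nlp-28* (0.07) ranged from -0.032 to 0.22 and turned negative without *tcer-1(tm1452)* replicate 1.

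Deviations of libraries with the same replicate number had correlations of -0.04 to 0.075, and those with different numbers -0.067 to 0.043. Both ranges lie around 0, and a small effect shared by replicate number could go unseen in them. With the replicate block *cnc-2* in the *tcer-1(glm27)* mutant, at 0.67, had an adjusted p of 0.0719, and the counts of members past the test were 8, 6 and 2. *cnc-2* in the *tcer-1(glm27)* mutant also missed the threshold with a pseudocount of 0.5 and without a filter (adjusted p = 0.055 and 0.0772). It was past the test without a trend (0.00217), with a pseudocount of 5 (0.0236) and with equal upper quartiles (0.0272). *nlp-28* missed the threshold without a trend (0.0539 and 0.112 in the mutants). The cause was not tested. A count-based test was not run, since the value of a read depends on transcript length in each library. Depth limits *nlp-34*, *nlp-30* and *cnc-2* most, with 11 to 126 reads a genotype.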

Other observations

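The pattern of *cnc-2* and *cnc-3*, lower in the *tcer-1(tm1452)* mutant and higher in the *tcer-1(glm27)* mutant, was also met among cuticle genes, which were chosen here after their values were seen. Of the 14 moulting and larval cuticle markers, 4 were past the test in both directions this way, *fbn-1*, *noah-1*, *noah-2* and *mlt-11*, against 2.45% of all tested genes. Another 5 of the 14, *nas-37*, *nekl-2*, *nekl-3*, *bli-5* and *mlt-8*, rose in both mutants, as did 24.8% of all tested genes. *fbn-1*, a fibrillin-like protein of the apical extracellular matrix, was at 425 ± 93.5 normalized counts in wildtype, 147 ± 31.4 in the *tcer-1(tm1452)* mutant and 716 ± 85.5 in the *tcer-1(glm27)* mutant (SD, n = 3). *noah-1*, a zona pellucida domain protein of the same matrix, was at 884 ± 154, 405 ± 74.3 and 1360 ± 80.0. The furrow collagens *dpy-2* (126 ± 26.3, 81.5 ± 11.8 and 179 ± 17.0) and *dpy-7* (112 ± 29.2, 78.4 ± 9.94 and 151 ± 14.8) did the same. The pattern was not limited to cuticle genes. It was also past the test for *sma-6* of the DBL-1 pathway list (log2 fold changes -0.21 and 0.29). Of the epidermis markers, *elt-1* (-0.28 and 0.31) and *hch-1* (-6.37 and 1.14) showed it too. None of the 6 *nlp* members showed it.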
